A study of Mus musculus with 6 samples.

Results

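The interferon regulatory factors (IRFs) are transcription factors that share an amino-terminal DNA-binding domain and recognise GAAA-rich sites in the promoters of interferon and interferon-stimulated genes. In macrophages Irf3, Irf5 and Irf7 are activated by kinases below pattern-recognition receptors, Irf9 binds DNA in the complex that answers type I interferon, and Irf1, itself induced by interferons, acts through sites that Irf2 can also occupy. Irf4 and Irf8, close relatives of each other, mostly act together with partners such as PU.1 and AP-1 proteins, and both are known for shaping myeloid and lymphoid identity. Members were the 8 genes Irf1, Irf2, Irf3, Irf4, Irf5, Irf7, Irf8 and Irf9, taken by symbol from the count table, out of 23413 genes listed. All 8 passed the filter on low counts, with 10724 genes in all.

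The cells were alveolar macrophages, phagocytes that live in the air sacs, washed from the lungs of wild-type mice and treated outside the body. The LPS + VD3 group received lipopolysaccharide (LPS) at 100 ng/mL with vitamin D3 (VD3) at 50 nM for 4 h. The LPS group received LPS at 100 ng/mL for 4 h, and the control group is labelled only as control. LPS is a bacterial membrane component that signals through Tlr4, and the active form of vitamin D is the ligand of the vitamin D receptor. RNA-seq gave 2 libraries per group, 6 in all. No group received VD3 without LPS. The strain, age and number of mice are not stated in the labels, and nothing there says that libraries came from separate animals. The p-values therefore weigh differences against the spread of these libraries, and that spread may be technical.

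Total counts per library lay between 5022314 and 5465223. Library LPS 1 stood apart, and its title comes from another number series than the other titles. Pearson's r of log2 CPM, counts scaled to library size, across genes was 0.981 between the LPS + VD3 libraries, 0.969 between the LPS libraries and 0.991 between the control libraries. The log2 difference between LPS 1 and LPS 2 followed transcript GC content. Spearman's rho across genes was 0.18 for the LPS + VD3 pair, 0.655 for the LPS pair and 0.235 for the control pair. All 17 tested alveolar macrophage markers were present. In LPS against control 5 of them rose, among them Marco and Car4, and 7 fell, among them Siglec5 and Pparg, with a median of -0.19. Their summed level was 39450 and 39200 CPM in LPS + VD3, 38900 and 38350 CPM in LPS and 33080 and 33620 CPM in control. Among markers of other cells with high IRF levels, Ms4a1, Siglech, Cd209a and Flt3 had at most 3 counts in any library, but other dendritic cell markers were present and are given beside Irf8. The 9 B and plasma cell markers found summed to 84.2 and 91.8 CPM in LPS + VD3 and 86.0 and 88.2 CPM in LPS. In control they summed to 96.5 and 94.2 CPM, with Cd79b, Pax5, Igj and Mzb1 at 0 throughout. Of the 2 tested, none passed in any comparison. The 10 monocyte markers summed to 2619 and 3114 CPM in LPS + VD3, 2249 and 1985 CPM in LPS and 718 and 715 CPM in control, with Plac8 among those at 0. They did not move together: of the 4 tested, Vcan, Fn1 and Treml4 rose and Ccr2 fell in both comparisons with control. The 14 lung epithelium markers summed to 41.7 and 55.5 CPM in LPS + VD3, 35.9 and 40.1 CPM in LPS and 224 and 242 CPM in control, with Sftpc, Scgb3a2 and Lamp3 at 0. Only 1 of the 14 had enough counts to be tested, Cdh1. Its log2 fold change was -2.80 in LPS against control and -2.40 in LPS + VD3 against control. The markers at 0 do not show that these other cell types were absent, since other markers of the same lists had counts. The part of such cells in the results against control was not tested.

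The promoters of the members were read for letters bound by the factors that carry LPS and interferon signals. The 250 bases before each start site were taken from RefSeq (GRCm38.p6, the mm10 build), in which all 8 members had an entry, with 11 start sites between them. The search covered both strands for 4 motifs. These were the interferon-stimulated response element (ISRE), written as GAAA, any pair of bases and GAAA again, the STAT-bound GAS element as TTCNNNGAA, the NF-kB consensus, and the direct repeat bound by the vitamin D receptor. Windows of 3 members held matches, and the stretches with them are shown 5′ to 3′ on the plus strand, with each match in capitals. The Irf1 stretch is chr11:53769909-53770013 and ends at the base before the start site. The Irf2 stretch is chr8:46739495-46739544 and the Irf8 stretch is chr8:120736172-120736228.
Irf1 (GAS, then NF-kB): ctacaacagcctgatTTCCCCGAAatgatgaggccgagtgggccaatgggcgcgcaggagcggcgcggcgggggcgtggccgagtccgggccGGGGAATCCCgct
Irf2 (ISRE, then GAS): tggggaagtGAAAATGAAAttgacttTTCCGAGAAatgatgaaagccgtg
Irf8 (GAS, then GAS): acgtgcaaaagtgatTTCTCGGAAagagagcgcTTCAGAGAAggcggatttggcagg

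Irf2 also held an NF-kB match 17 to 8 bases before its start, outside the stretch shown. The matches of Irf1 lay 90 to 82 bases (GAS) and 13 to 4 bases (NF-kB) before the start. Those of Irf2 lay 241 to 232 bases (ISRE) and 224 to 216 bases (GAS) before it, and the GAS matches of Irf8 lay 171 to 163 and 153 to 145 bases before it. Among 32817 promoter windows of the same length, 2.97% held the ISRE letters, 7.01% the GAS letters, 7.25% the NF-kB consensus and 0.04% the vitamin D receptor repeat. No member's window held that repeat, and the windows of Irf3, Irf4, Irf5, Irf7 and Irf9 held none of the 4 motifs. The RefSeq start sites can differ from the ends of the gene spans given below. Those of Irf9, 55603985 and 55604579, lie inside its span, so the bases before that span were not searched. The NF-kB match of Irf2, at 46739728 to 46739737, crosses the first base of its span. A match is a run of letters, not a shown site of binding, and its absence says only that these letters are not in this window.

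In macrophages given LPS, Irf1, Irf7 and Irf9 rose and Irf8 fell against control, while Irf2, Irf3, Irf4 and Irf5 did not pass the test. Adding VD3 to LPS raised Irf4 by 2.61-fold and lowered Irf1 by 2.34-fold and Irf7 by 2.21-fold against LPS alone, with the other 5 members not passing. Against control, LPS + VD3 raised Irf1, Irf4, Irf7 and Irf9 and lowered Irf8. Genes were called at a Benjamini-Hochberg adjusted p under 0.05 over all genes tested with edgeR's quasi-likelihood test. In LPS against control 3 of 8 members rose, where 15.5% of all genes tested did, and 1 fell, where 16% did. Of the 8 members, 1 rose in LPS + VD3 against LPS, where 2.21% of all genes did, and 2 fell, where 1.6% did. Between LPS + VD3 and control 4 of 8 rose in LPS + VD3, where 17.5% of all genes did, and 1 fell, where 17.1% did. The 3 comparisons share libraries with each other, so their counts are not separate evidence. The falls with VD3 depended on the processing and on single libraries. Of 17 alternatives, 8 lost the Irf7 call in LPS + VD3 against LPS and 2 lost the Irf1 call, while Irf4 kept its call in all 17. Without LPS 1 the log2 fold change there was -0.62 for Irf7 and -1.05 for Irf1. Without LPS 2 it was -1.53 for Irf7 and -1.39 for Irf1. In these bulk samples, fewer cells of a type and less RNA per cell cannot be told apart.

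**Figure D1:**
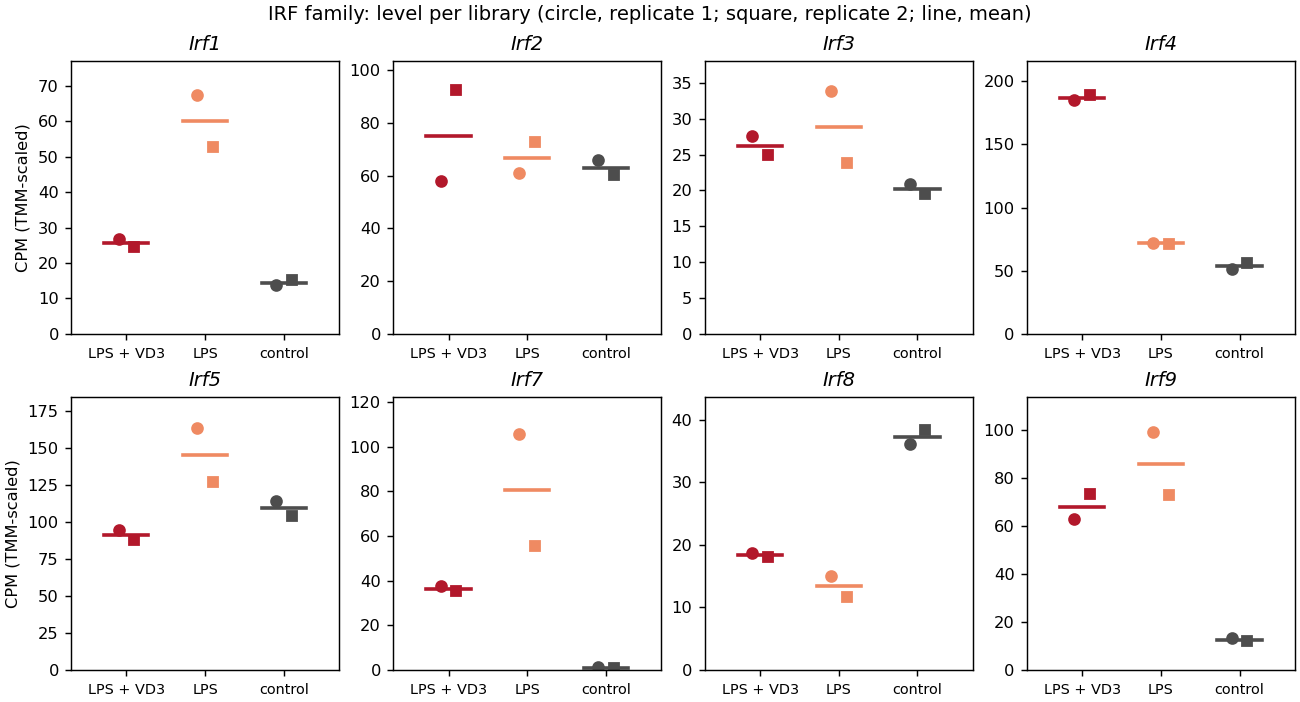
Level of each member in each library, in TMM-scaled CPM (vertical axis from 0), by group; circles are replicate 1, squares replicate 2 and lines the mean of 2 libraries. Irf4 is near 187 CPM in LPS + VD3 and below 73 CPM elsewhere, Irf1 and Irf7 are highest in LPS, and Irf8 is highest in control.

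Irf1 is an activator of antigen-processing, guanylate-binding protein and cytokine genes, and lies on chromosome 11 at 53770014 to 53778374 on the plus strand of mm10. It had 128 and 123 counts in the LPS + VD3 libraries, 328 and 261 in the LPS libraries and 80 and 95 in the control libraries. The groups did not overlap: LPS was highest, LPS + VD3 in the middle and control lowest. TMM-scaled levels averaged 25.6 ± 1.64 CPM in LPS + VD3, 60.1 ± 10.3 CPM in LPS and 14.5 ± 1.08 CPM in control (SD, n = 2 each). Its log2 fold change was 2.05 ± 0.20 in LPS against control (SE; edgeR adjusted p = 3.05e-05) and -1.23 ± 0.19 in LPS + VD3 against LPS (edgeR adjusted p = 0.00675). Against control, LPS + VD3 gave 0.82 ± 0.20 (edgeR adjusted p = 0.0106). Irf1 thus stayed above control when VD3 was present. That call was lost without scaling beyond library size (0.50, edgeR adjusted p = 0.0768), in the deposited log2 table (0.48, limma adjusted p = 0.0742), and in edgeR without control 1 (adjusted p = 0.118), control 2 (0.0637), LPS + VD3 1 (0.0713) or LPS + VD3 2 (0.0556). The fall with VD3 was -1.05 (edgeR adjusted p = 0.00197) without LPS 1, and it did not pass without LPS + VD3 1 (-1.29, adjusted p = 0.0906) or LPS + VD3 2 (-1.17, adjusted p = 0.152).

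Irf2, which can occupy the sites of Irf1 and is mostly known as its antagonist, lies on chromosome 8 at 46739732 to 46847458 on the plus strand. It had 277 and 464 counts in LPS + VD3, 297 and 359 in LPS and 385 and 376 in control. The LPS + VD3 libraries lay on both sides of the others, at 58.0 and 92.4 CPM, so the groups overlapped in every comparison. Its log2 fold change was 0.08 ± 0.22 in LPS against control, 0.17 ± 0.22 in LPS + VD3 against LPS and 0.25 ± 0.22 in LPS + VD3 against control, and none passed. The 95% interval of the VD3 difference ran from -0.32 to 0.66, and the sign of all 3 values changed under some settings. Per exon length, the ratio of Irf1 to Irf2 was 0.860 and 0.493 in LPS + VD3, 2.05 and 1.35 in LPS and 0.387 and 0.470 in control. Both LPS libraries lay above the other 4.

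Irf3 and Irf7 are the factors that start transcription of the type I interferon genes once the kinases Tbk1 and Ikbke phosphorylate them, Irf3 being present in most resting cells and Irf7 itself induced by interferon. Irf7, on chromosome 7 at 141262706 to 141266481 on the minus strand, had 179 and 178 counts in LPS + VD3, 516 and 275 in LPS and 7 and 6 in control. Control cells thus held little Irf7 mRNA, and both treated groups were far above them without overlap. Irf7 passed the filter on low counts only through the treated groups. Irf7 averaged 36.5 ± 1.45 CPM in LPS + VD3, 80.8 ± 35.5 CPM in LPS and 1.08 ± 0.168 CPM in control (SD, n = 2 each). The log2 fold change was 6.20 ± 0.41 in LPS against control (SE; edgeR adjusted p = 2.31e-06), a 73.4-fold difference, and 5.05 ± 0.42 in LPS + VD3 against control (edgeR adjusted p = 1.09e-05). It was the largest change of any member in both comparisons.

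For Irf7 in LPS + VD3 against LPS the log2 fold change was -1.15 ± 0.27 (edgeR adjusted p = 0.0455). The LPS libraries differed from each other by 0.92 on the log2 scale for Irf7, more than for any other member, at 106 CPM in LPS 1 and 55.6 CPM in LPS 2. Both lay above the 37.5 and 35.4 CPM of LPS + VD3. Without LPS 1 the value was -0.62 (edgeR adjusted p = 0.0459), and without LPS 2 it was -1.53 (edgeR adjusted p = 2.12e-05). The Irf7 transcript has 55.4% GC, above 81.7% of the genes tested, and the part of GC content in the value was not tested beyond a fit with GC offsets, which gave -0.87 (edgeR adjusted p = 0.0128). The call was lost without either LPS + VD3 library, at adjusted p of 0.202 and 0.408, and without control 1 or control 2 (0.0595 and 0.06). It was also lost with limma-voom (0.0623), in a fit of the compared libraries alone (0.0532) and in the deposited log2 table (0.0771). Of 9 plasmacytoid dendritic cell markers, whose cells are rich in Irf7, Ly6d and Klk1 were at 0 and Siglech had at most 1 count in any library. Their summed level, mostly Bst2 and Tcf4, was 36.6 and 35.6 CPM in LPS + VD3, 78.0 and 48.6 CPM in LPS and 28.8 and 26.3 CPM in control. Bst2 is also counted below among genes listed as driven through ISRE sites. It alone had 22.2 and 18.7 CPM in LPS + VD3, 65.1 and 32.6 CPM in LPS and 18.3 and 14.1 CPM in control. The part of such cells in the Irf7 result was not tested.

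Irf3, on chromosome 7 at 44997648 to 45002848 on the plus strand, had 132 and 125 counts in LPS + VD3, 165 and 118 in LPS and 122 and 122 in control. Both treated groups lay above control, at 27.6 and 24.9 CPM in LPS + VD3 and 33.9 and 23.9 CPM in LPS against 20.9 and 19.6 CPM in control, but overlapped each other. Irf3 had a log2 fold change of 0.51 ± 0.21 in LPS against control (edgeR adjusted p = 0.0963) and -0.14 ± 0.21 in LPS + VD3 against LPS (adjusted p = 0.732, 95% interval -0.61 to 0.34). The first value was 0.22 without LPS 1 and 0.74 without LPS 2, where it passed (edgeR adjusted p = 0.00493), and the second was 0.13 without LPS 1. Irf3 was at 0.38 ± 0.21 in LPS + VD3 against control (edgeR adjusted p = 0.204), and passed there with GC offsets (0.59, adjusted p = 0.00882). Per exon length, the ratio of Irf7 to Irf3 was 1.24 and 1.30 in LPS + VD3, 2.85 and 2.12 in LPS and 0.0523 and 0.0448 in control. Irf7 mRNA was thus the more abundant of the pair in all 4 treated libraries and Irf3 in both control libraries.

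Irf5, which acts below Myd88 and is known for driving inflammatory cytokine genes in macrophages, lies on chromosome 6 at 29526625 to 29541871 on the plus strand. It had 452 and 442 counts in LPS + VD3, 798 and 627 in LPS and 666 and 651 in control. In CPM both LPS + VD3 libraries (94.6 and 88.0) lay below both LPS libraries (164 and 127) and both control libraries (114 and 104). Irf5 had a log2 fold change of 0.41 ± 0.17 in LPS against control (edgeR adjusted p = 0.0927) and -0.67 ± 0.17 in LPS + VD3 against LPS (edgeR adjusted p = 0.0629, 95% interval -1.05 to -0.29). DESeq2 called the VD3 difference (-0.69, adjusted p = 0.0214), as did edgeR without LPS 2 (-0.84, adjusted p = 0.000767), and without LPS 1 it was -0.48 (adjusted p = 0.0761). Relative to control Irf5 was at -0.26 ± 0.17 in LPS + VD3 (edgeR adjusted p = 0.271), and -0.59 without scaling beyond library size (adjusted p = 0.021). Exons of Irf5 share 411 bases with the opposite-strand gene Tnpo3, and since the strand setting of the counting is not stated, reads there could belong to either gene. The same holds for 88 bases shared by Irf3 and Bcl2l12 and 45 bases shared by Irf7 and Phrf1. It also holds for 135 bases shared by Irf1 and the opposite-strand gene Gm17334, which is not in the count table.

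Irf9, the DNA-binding subunit of the complex that type I interferon activates, lies on chromosome 14 at 55603571 to 55610030 on the plus strand. It had 300 and 368 counts in LPS + VD3, 483 and 360 in LPS and 77 and 76 in control. The treated groups overlapped each other, LPS + VD3 at 62.8 and 73.3 CPM and LPS at 99.1 and 72.8 CPM, and both lay well above the 13.2 and 12.2 CPM of control. The log2 fold change was 2.76 ± 0.21 in LPS against control (edgeR adjusted p = 6.41e-06) and 2.42 ± 0.21 in LPS + VD3 against control (edgeR adjusted p = 1.48e-05). The VD3 difference was -0.34 ± 0.19 (edgeR adjusted p = 0.313, 95% interval -0.76 to 0.08). That value was -0.11 without LPS 1 and -0.54 without LPS 2, where it passed (edgeR adjusted p = 0.0137). Irf9 shares 123 exon bases with Rnf31 on the same strand, so counts there are uncertain too.

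Irf4, known for alternative activation in macrophages and for plasma cell and dendritic cell programmes, lies on chromosome 13 at 30749226 to 30766976 on the plus strand. It had 883 and 952 counts in LPS + VD3, 351 and 352 in LPS and 299 and 352 in control. Both LPS + VD3 libraries stood far above the other 4, which lay close together. Irf4 averaged 187 ± 3.28 CPM in LPS + VD3, 71.6 ± 0.577 CPM in LPS and 53.8 ± 3.67 CPM in control (SD, n = 2 each). The log2 fold change was 1.39 ± 0.15 in LPS + VD3 against LPS (SE; edgeR adjusted p = 0.00101), 35th of 10724 genes by p, and 1.80 ± 0.15 in LPS + VD3 against control (edgeR adjusted p = 1.14e-05). In LPS against control it was 0.41 ± 0.15 (edgeR adjusted p = 0.0646), with the LPS libraries above both control libraries. LPS 1 and LPS 2 differed by 0.02 on the log2 scale for Irf4, the smallest gap of any member, and without LPS 1 the rise with VD3 was 1.38 (edgeR adjusted p = 8e-05). It passed under all 17 alternatives, at 1.31 to 1.41.

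Irf8, needed for the monocyte and dendritic cell lineages and for macrophage defence genes, lies on chromosome 8 at 120736358 to 120756694 on the plus strand. It had 89 and 91 counts in LPS + VD3, 73 and 58 in LPS and 211 and 239 in control. Control was highest, LPS + VD3 lower and LPS lowest, with no overlap between groups. Irf8 averaged 18.4 ± 0.367 CPM in LPS + VD3, 13.4 ± 2.30 CPM in LPS and 37.2 ± 1.53 CPM in control (SD, n = 2 each). The log2 fold change was -1.48 ± 0.20 in LPS against control (edgeR adjusted p = 0.000293) and -1.02 ± 0.19 in LPS + VD3 against control (edgeR adjusted p = 0.00245). The LPS + VD3 libraries lay above the LPS libraries by 0.46 ± 0.21, which did not pass (edgeR adjusted p = 0.234, 95% interval -0.01 to 0.93). The 13 dendritic cell markers, whose cells are rich in Irf8, summed to 324 and 373 CPM in LPS + VD3, 228 and 271 CPM in LPS and 309 and 334 CPM in control, most of it Cd24a, and none was at 0 in every library. Clec9a had 23 and 33 counts in LPS + VD3, 22 and 27 in LPS and 92 and 143 in control, and like Irf8 was highest in control. Xcr1 had 39 and 33 counts in LPS + VD3, 14 and 17 in LPS and 5 and 4 in control, and Btla had 19 and 18 in LPS + VD3, 1 and 1 in LPS and 2 and 0 in control. In LPS against control the log2 fold change was 2.05 ± 0.47 for Xcr1 and -1.95 ± 0.30 for Clec9a (edgeR adjusted p = 0.00792 and 0.00065), and the part of such cells in the Irf8 result was not tested.

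**Figure D2:**
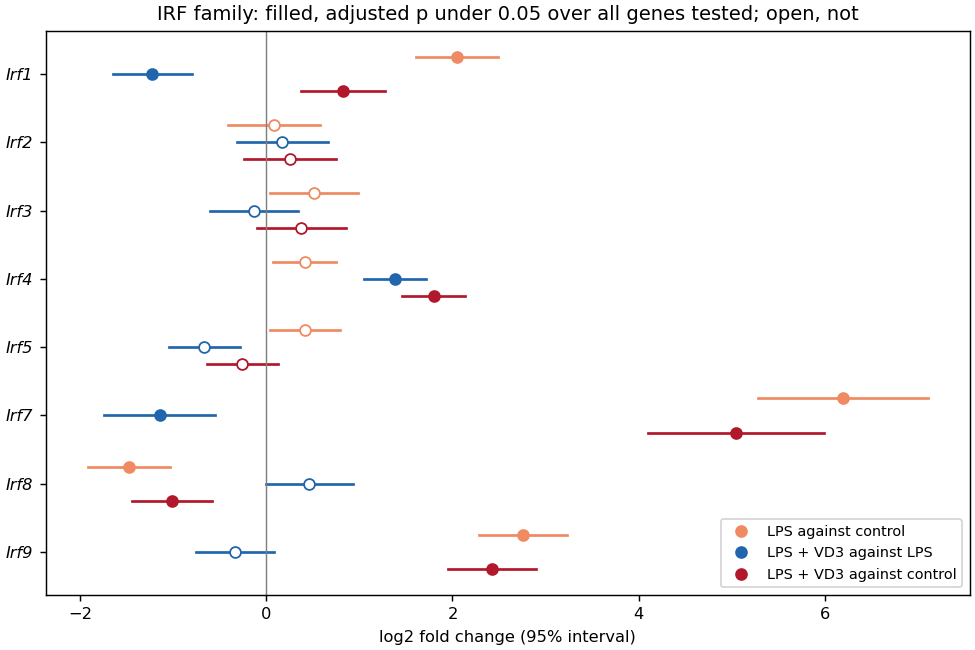
Log2 fold change of each member (horizontal axis) in the 3 comparisons, with bars for the 95% interval; filled points have an edgeR adjusted p under 0.05 over all genes tested. Irf4 lies right of 0 and Irf1 and Irf7 left of 0 for LPS + VD3 against LPS, and Irf7 reaches 6.20 for LPS against control.

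Levels of different members were compared as RPKM, which scales reads by exon length and library size, with exon lengths from GENCODE M21. In LPS + VD3 the order of mean RPKM was Irf4 (38.2 ± 0.668), Irf5 (31.4 ± 1.62), Irf9 (12.6 ± 1.37), Irf2 (10.2 ± 3.29), Irf7 (9.65 ± 0.383), Irf3 (7.63 ± 0.566), Irf1 (6.45 ± 0.412) and Irf8 (2.60 ± 0.0520). The Irf2 libraries lay at 7.84 and 12.5 and overlapped those of Irf9, Irf7 and Irf3, so Irf2 could not be placed among them. In LPS the order was Irf5 (50.0 ± 8.98), Irf7 (21.4 ± 9.41), Irf9 (16.0 ± 3.45), Irf1 (15.1 ± 2.58), Irf4 (14.6 ± 0.118), Irf2 (9.03 ± 1.12), Irf3 (8.39 ± 2.05) and Irf8 (1.89 ± 0.325). There Irf5 stood above and Irf8 below all others, Irf9 and Irf1 overlapped each other and both Irf7 and Irf4, and Irf2 overlapped Irf3. In control the order was Irf5 (37.6 ± 2.38), Irf4 (11.0 ± 0.749), Irf2 (8.53 ± 0.544), Irf3 (5.88 ± 0.277), Irf8 (5.28 ± 0.216), Irf1 (3.64 ± 0.270), Irf9 (2.36 ± 0.133) and Irf7 (0.286 ± 0.0445), with no overlap between neighbours. All errors are SD over 2 libraries, and the levels rest on the full annotated exon length, not on the transcripts in use.

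The make-up of IRF mRNA differed between the groups. Irf4 made up 32.2% and 32.1% of the summed IRF RPKM in LPS + VD3, 9.50% and 12.3% in LPS and 13.7% and 15.8% in control. Irf4 was the most abundant IRF transcript in both LPS + VD3 libraries and Irf5 in the other 4. Irf5 made up 27.8% and 25.2% in LPS + VD3, 36.5% and 37.0% in LPS and 51.6% and 49.2% in control. Irf7 held 8.47% and 7.80% in LPS + VD3, 18.1% and 12.5% in LPS and 0.418% and 0.349% in control. Irf8 held 2.26% and 2.13% in LPS + VD3, 1.37% and 1.41% in LPS and 6.74% and 7.43% in control. The ratio of Irf4 to Irf8, the pair of close relatives, was 14.3 and 15.1 in LPS + VD3, 6.92 and 8.73 in LPS and 2.04 and 2.12 in control, with no overlap between groups. Summed IRF RPKM was 117 and 120 in LPS + VD3, 155 and 118 in LPS and 76.1 and 73.0 in control.

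**Figure D3:**
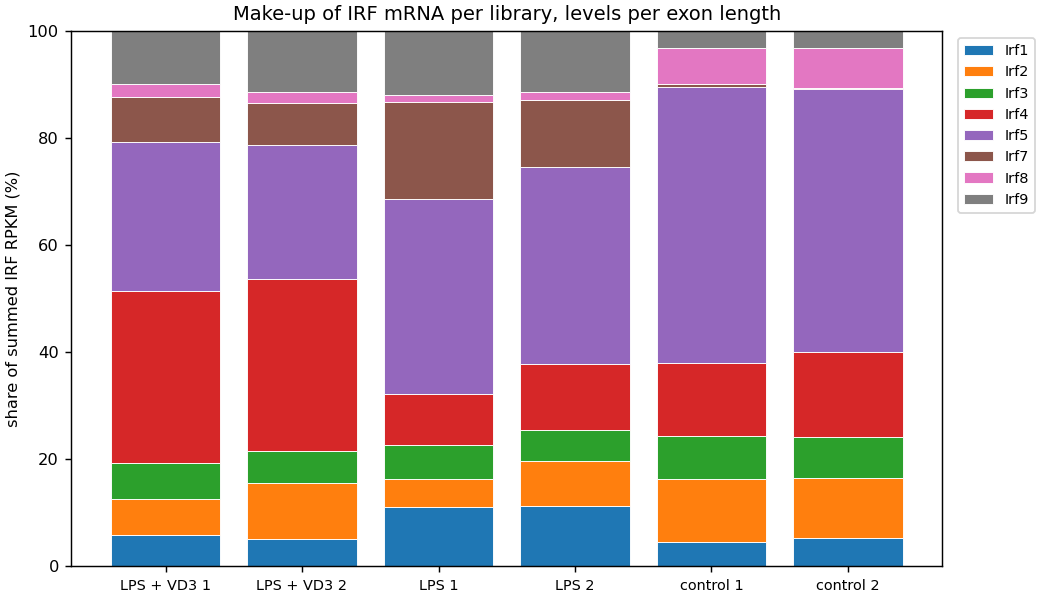
Share of each member in the summed IRF level per library (vertical axis, percent of summed RPKM); the LPS + VD3 libraries stand left, the LPS libraries in the middle and the control libraries right. Irf4 takes 32.2% and 32.1% in LPS + VD3, and Irf5 about as much as all other members together in control (51.6% and 49.2%).

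Genes whose log2 CPM ran most like that of each member over the 6 libraries were looked up among 9123 genes by Pearson's r, as a description, since the libraries share groups and their depth. For Irf9 they were the nucleic acid sensor Zbp1 (r = 1.00 after rounding), Oas3 and Alpk2. Those of Irf7 were Hmox1 (0.999), Papd7 and Nfkb2, and for Irf1 they were Maff (0.994), Ftsjd2 and Cish. Irf4 was followed by Dot1l (0.997), Rrs1 and Sik3, Irf8 by P2ry6 (0.997), Slc35e1 and Ung, and Irf5 by Cybasc3 (0.996), Mapkapk3 and Ptges2. For Irf3 and Irf2, which did not pass in any comparison, the closest were Adrm1 (0.996), Armc5 and Ctsb, and Erlin2 (0.994), Phactr4 and Rbms1. High values of r arise easily over 6 libraries in 3 groups.

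The list counts that follow stand against the shares of all genes tested in the fit of all 6 libraries. These were 15.5% raised and 16% lowered in LPS against control, 2.21% and 1.6% in LPS + VD3 against LPS, and 17.5% and 17.1% in LPS + VD3 against control. Leaving out 1 library also moved the number of all genes called, so list counts from such fits cannot be set against these shares. Listed genes with almost no counts in control passed the filter on low counts only through the treated groups. Such genes could hardly show anything but a rise against control. Of 21 sensors, adaptors and kinases that activate IRFs, 9 rose and 4 fell in LPS against control, the falls near the share of all genes, with a median log2 fold change of 0.39 against 0.01 over all genes. Ikbke, 1 of the kinases of Irf3 and Irf7, rose by 2.43 ± 0.21 (edgeR adjusted p = 1.56e-05), the scaffold Tank by 1.92 ± 0.22, the ubiquitin ligase Traf3 by 1.23 ± 0.16 and the other kinase Tbk1 by 0.84 ± 0.16. Tmem173, the STING adaptor, fell by 0.78 on the log2 scale, Ticam2, which links Tlr4 to Ticam1, by 0.62, and Mavs, the adaptor of RNA sensors, by 0.61. Of the 21, 1 passed when VD3 was added to LPS, Ticam2, which had 391 and 383 counts in LPS + VD3, 172 and 200 in LPS and 335 and 371 in control. Its log2 fold change was 1.06 ± 0.16 (edgeR adjusted p = 0.00657), and the LPS + VD3 libraries lay above both other groups. LPS + VD3 against control had 10 raised and 3 lowered. Without LPS 1 the VD3 comparison had 3 raised, and without LPS 2 it had 6 raised and 6 lowered. The Ticam2 call was lost without either LPS + VD3 library, as were most calls over all genes. That loss therefore says little about Ticam2 itself, which stood at 81.9 and 76.2 CPM in LPS + VD3 and 35.3 and 40.5 CPM in LPS. Without control 1 the LPS comparison had 4 raised and 1 lowered, and without control 2 it had 6 raised and 0 lowered.

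Of 12 interferon receptor and JAK-STAT genes, which carry the interferon signal to Irf9, 8 rose and 1 fell in LPS against control, with a median of 0.63. Jak2 rose by 2.92 ± 0.19, Stat2 by 2.72 ± 0.20, the receptor chains Ifnar1 and Ifnar2 by 1.37 ± 0.15 and 1.33 ± 0.15 (edgeR adjusted p = 7.55e-05 and 9.1e-05), and Ifngr1 fell by 0.96. None of the 12 passed in LPS + VD3 against LPS in edgeR (0 called), with 2 at an unadjusted p under 0.05, 2 called by DESeq2 and 1 by limma-voom. Jak2 was at 0.73 ± 0.18 there (edgeR adjusted p = 0.0543), with 3601 and 3868 counts in LPS + VD3 and 1858 and 2668 in LPS. Relative to control 7 rose and 1 fell in LPS + VD3. Without control 1 or control 2 the LPS comparison had 5 raised, and the VD3 comparison had 1 raised without LPS 1 and 1 raised and 2 lowered without LPS 2. Of 8 interferon genes 1 had enough counts to be tested, Ifnb1, the gene of interferon beta, with 6 and 4 counts in LPS + VD3, 18 and 12 in LPS and 0 in both control libraries. Its LPS + VD3 counts lay below its LPS counts, and that difference did not pass (edgeR adjusted p = 0.152). Against control it passed in LPS (edgeR adjusted p = 0.00101) and in LPS + VD3 (adjusted p = 0.0131), the second of which was lost without either control or either LPS + VD3 library.

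Of 15 tested partners and coactivators of IRFs, 9 rose and 1 fell in LPS against control, with a median of 0.78. The NF-kB subunits Nfkb1 and Relb rose by 2.96 ± 0.15 and 2.89 ± 0.28, and Junb, an AP-1 partner of Irf4 and Irf8, by 2.49 ± 0.28. The PU.1 gene, listed as Sfpi1, was at 0.78 ± 0.27 (edgeR adjusted p = 0.0517), with 923 and 1367 counts in LPS + VD3, 2337 and 1260 in LPS and 1255 and 1328 in control. Among these 15, 1 passed in LPS + VD3 against LPS, Batf3, which pairs with Irf8 in dendritic cells. It had 18 and 18 counts in LPS + VD3, 57 and 38 in LPS and 58 and 60 in control, and fell by 1.39 ± 0.32 in log2 (edgeR adjusted p = 0.0417). Batf3 is also a dendritic cell marker, a set whose levels are given beside Irf8, and its part in the result was not tested. Relative to control 7 rose and 1 fell in LPS + VD3. The count of 1 lowered became 0 without any library other than LPS 2, with DESeq2 and with limma-voom, and 5 without LPS 2. Without control 1 the LPS comparison had 6 raised and 0 lowered, without control 2 it had 5 and 0, and without LPS 1 it had 8 and 2.

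Of 15 tested genes that limit IRF action, 7 rose and 2 fell in LPS against control, with a median of 0.58. Tnfaip3, a deubiquitinase that restrains signals below Tlr4, rose by 4.57 ± 0.19 and Trim21, a ubiquitin ligase that acts on IRFs, by 2.41 ± 0.19. Oasl1, which in mice is known to restrain translation of Irf7, had 2256 and 2515 counts in LPS + VD3, 4647 and 2794 in LPS and 3 and 0 in control. VD3 on top of LPS changed 1 of the 15, Socs1, a brake on interferon receptors, with 20 and 10 counts in LPS + VD3, 191 and 63 in LPS and 9 and 4 in control. Its log2 fold change was -3.07 ± 0.57 (edgeR adjusted p = 0.0155), and the LPS libraries, which differed strongly from each other, both lay above all others. LPS + VD3 cells had 6 raised and 2 lowered against control. Without LPS 2 the VD3 comparison had 7 lowered, without either LPS + VD3 library 0, and with limma-voom 0. The LPS comparison had 5 raised and 1 lowered without control 1 or control 2.

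Genes listed as driven through ISRE sites rose as a group with LPS and stayed high with VD3. Their own promoters were not searched for ISRE letters. All 26 tested of 28 rose in LPS against control, with a median of 4.79, and 24 rose in LPS + VD3 against control, with a median of 4.81. Ifit1 and Rsad2, antiviral effectors, rose by 10.84 and 10.17. Their control libraries held 3 and 2 counts of Ifit1 and 2 and 4 of Rsad2, so the size of these changes is uncertain. These and others with almost no counts in control, such as Ifit3 (0 and 0), passed the filter on low counts only through the treated groups. They could hardly show anything but a rise against control, so the count of 26 and the medians partly follow from the filter. Cxcl10 had 3289 and 3377 counts in LPS + VD3, 4231 and 2990 in LPS and 1 and 1 in control. Set against LPS, 3 of 26 fell in LPS + VD3, with a median of -0.43 against 0.00 over all genes. Mx1, an antiviral GTPase, fell by 0.93 ± 0.17 in log2 (edgeR adjusted p = 0.0143), at 229 and 263 counts in LPS + VD3, 509 and 431 in LPS and 51 and 49 in control. Ifit2 fell by 0.90 ± 0.17 (edgeR adjusted p = 0.0196) and Ifit3 by 0.86 ± 0.19 (edgeR adjusted p = 0.0402), though Ifit3 shares much sequence with Ifit3b and its count is uncertain. The count of 3 was 3 without LPS 1, 21 without LPS 2, 2 without control 1 or control 2 and 0 without either LPS + VD3 library.

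Genes linked to Irf1 rose in 15 of 20 tested cases in LPS against control, with a median of 1.35, and in 11 of 20 in LPS + VD3 against control, with a median of 0.76. Among the guanylate-binding proteins Gbp5 rose by 8.24 in LPS against control, with 11 and 10 counts in the control libraries. Gbp2 rose by 4.71 ± 0.20 there, and these near relatives may share reads. Adding VD3 to LPS raised 1 of them and lowered 3, with a median of -0.34. Those that fell serve peptide loading of class I molecules: Tap1 fell by 1.13 ± 0.24 in log2 (edgeR adjusted p = 0.0288), Tap2 by 1.05 ± 0.22 (edgeR adjusted p = 0.0287) and Psmb9 by 1.52 ± 0.34 (edgeR adjusted p = 0.0376). Tap1 had 269 and 236 counts in LPS + VD3, 688 and 417 in LPS and 109 and 121 in control. Psmb9 had 38 and 26 counts in LPS + VD3, 118 and 67 in LPS and 49 and 44 in control. Scaled to library size, its LPS + VD3 libraries (7.96 and 5.18 CPM) overlapped control (8.39 and 7.05 CPM) and lay below LPS (24.2 and 13.6 CPM). Il12b, the shared subunit of interleukins 12 and 23, rose by 1.32 ± 0.18 (edgeR adjusted p = 0.00376), with 2062 and 2272 counts in LPS + VD3 and 876 and 858 in LPS. The count of 3 lowered was 2 without LPS 1, 9 without LPS 2 and 0 without either LPS + VD3 library.

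**Figure D4:**
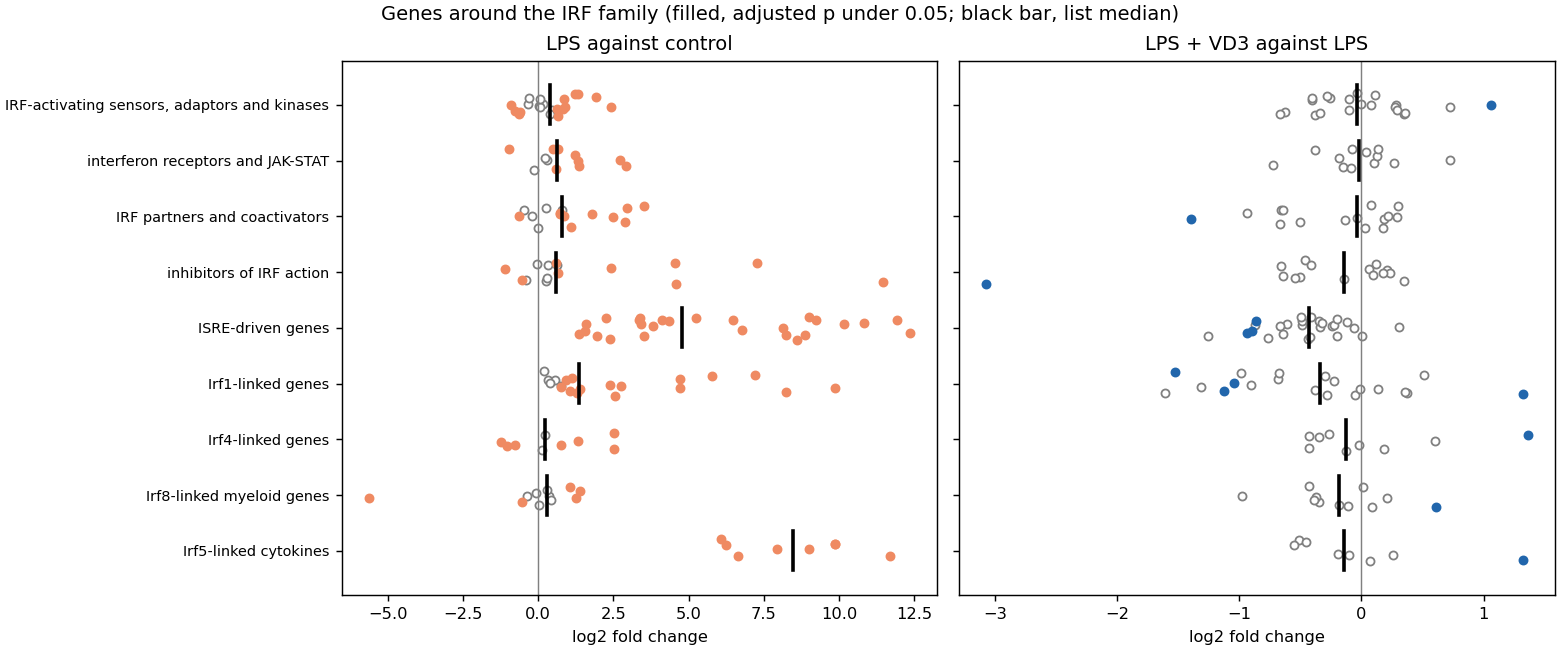
Log2 fold change (horizontal axis) of each tested gene in the lists around the IRF family, for LPS against control (left) and LPS + VD3 against LPS (right); filled points have an edgeR adjusted p under 0.05 and black bars are list medians. Genes listed as driven through ISRE sites have a median of 4.79 on the left and -0.43 on the right.

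Genes linked to Irf4 did not rise together when Irf4 did. Of 9 tested, 1 passed in LPS + VD3 against LPS, Myc, at 1.36 ± 0.20 (edgeR adjusted p = 0.00566), with a list median of -0.13. Myc had 228 and 315 counts in LPS + VD3, 116 and 95 in LPS and 285 and 328 in control, so its LPS + VD3 libraries lay above LPS and overlapped control. The histone demethylase Kdm6b was at 0.60 ± 0.18 (edgeR adjusted p = 0.109) and the arginase Arg1 at -0.02 ± 0.21 (adjusted p = 0.958). In LPS against control 4 rose, led by Kdm6b (2.53 ± 0.21) and the chemokine Ccl22 (2.51 ± 0.24), and Myc, Arg1 and Mrc1 fell. Against control 3 rose and 2 fell in LPS + VD3. Without LPS 2 the VD3 comparison had 3 raised and 1 lowered, and without LPS + VD3 2 it had 0 of either.

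Of 11 tested myeloid genes linked to Irf8, 3 rose and 2 fell in LPS against control, with a median of 0.28, and a count of this size is near the share of all genes called. Cybb, the catalytic subunit of the phagocyte oxidase, rose by 1.38 ± 0.17. Klf4, a monocyte lineage factor, fell by 5.62 on the log2 scale, to 11 and 11 counts in the LPS libraries. VD3 on top of LPS changed 1, the oxidase subunit Ncf1 (0.61 ± 0.14, edgeR adjusted p = 0.041), with 2731 and 2863 counts in LPS + VD3, 1855 and 1812 in LPS and 1688 and 1867 in control. LPS + VD3 against LPS had 0 raised without control 1, control 2 or either LPS + VD3 library, and 2 raised and 3 lowered without LPS 2. Against control 4 rose and 3 fell in LPS + VD3. The LPS comparison had 6 raised without LPS 2 and 1 lowered without control 1 or control 2.

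All 8 cytokines linked to Irf5 rose in LPS against control and in LPS + VD3 against control, with medians of 8.46 and 7.96, or 7.28 and 6.86 with Il23a, at 0 counts in control, set to its bound from a floor of 3 counts over that group. Il6, with 4 and 0 counts in control, Il12b, with 2 and 0, and Il23a passed the filter on low counts only through the treated groups. For these a rise against control was all but fixed by the filter. Of the 8, 1 rose in LPS + VD3 against LPS, Il12b, with a list median of -0.14. Tnf was at -0.51 ± 0.17 (edgeR adjusted p = 0.126), Il1b at -0.55 ± 0.15 (adjusted p = 0.0799) and Il6 at 0.07 ± 0.21 (adjusted p = 0.859). The count of 1 raised was 2 without LPS 2, with 3 lowered there, and 0 without either LPS + VD3 library.

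Of the list counts in LPS + VD3 against control, those of the activators moved most when 1 library was left out. Without control 1 they were 4 raised and 1 lowered, without control 2 or LPS + VD3 2 they were 6 and 1, and without LPS 1 or LPS 2 they were 12 and 5. The inhibitors had 4 raised and 1 lowered without control 1, 5 and 1 without control 2 or LPS + VD3 2, 6 and 1 without LPS + VD3 1, and 9 and 3 without LPS 1 or LPS 2. The genes linked to Irf8 had 2 raised and 1 lowered without control 1 and 2 of each without control 2 or LPS + VD3 2. Of the genes linked to Irf4, 1 was lowered without either control or either LPS + VD3 library. Among partners, 2 were lowered without either LPS library and 0 without LPS + VD3 2, and the lowered receptor, Ifngr1, lost its call without control 1.

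**Figure D5:**
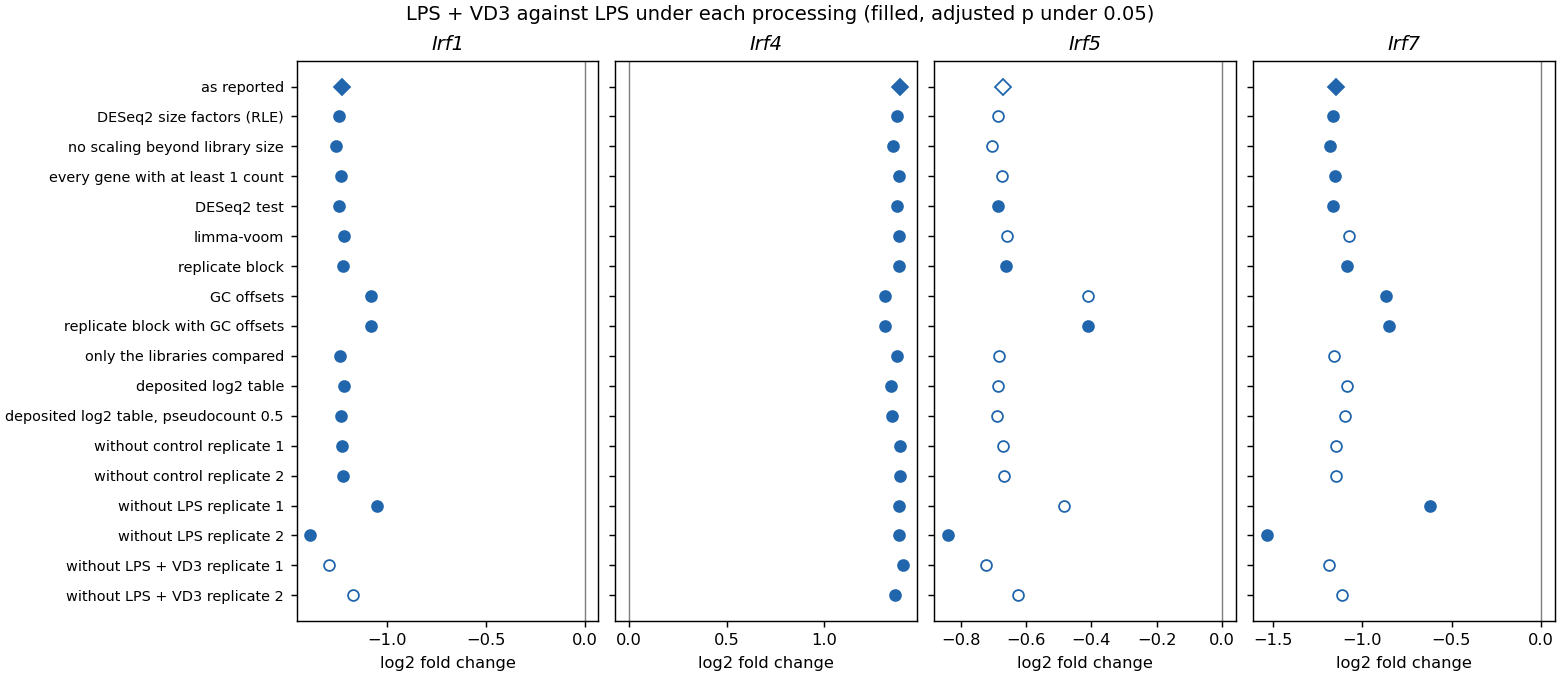
Log2 fold change of Irf1, Irf4, Irf5 and Irf7 in LPS + VD3 against LPS (horizontal axis) as reported (diamonds) and under 17 alternatives (circles); filled points have an adjusted p under 0.05. Irf4 stays between 1.31 and 1.41 and passes throughout, and Irf7 runs from -1.53 to -0.62.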

How the data were processed

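The authors' deposited counts are whole numbers per gene and library. Per the submitters' processing notes TopHat2, edgeR and mm10 were used, and the counter, annotation and strand setting are not stated there. The authors' second deposited table holds log2 values, equal to log2(CPM + 1) of the counts within 0.00423 for 10327 matched genes, and served only as an alternative. Libraries were grouped by their labels, and none was left out. Counts were tested in R 4.3.3 with edgeR 4.0.16: filterByExpr (minimum count 10, minimum total 15), TMM scaling, and 3 group means fitted to all 6 libraries with glmQLFit and glmQLFTest, with Benjamini-Hochberg adjustment over 10724 genes at 0.05. The script was tested on simulated data. SEs are the log2 fold change over the root of the F statistic. They, and the intervals made from them, can be too small where a group has few counts. For genes near 0 counts in control the fitted change depends on the prior count. Depth of 5022314 to 5465223 counts per library limits the precision of low genes, and reads carry no molecular identifiers.

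The members and gene lists were chosen with earlier results of these data known, so lists are described by counts and medians, without set tests. The text names every member, up to 3 called genes per list with the smallest p, genes of the lists of activators, receptors, partners and inhibitors, and the 3 genes most like each member. Outside that rule, chosen after their values were seen, are Psmb9, Mrc1, Arg1 and Il6, and Tnf, Il1b and Kdm6b in LPS + VD3 against LPS. Myc in LPS against control and the cell type markers named singly are outside it too. The 17 alternatives were DESeq2 1.42.0, limma-voom (limma 3.58.1), other scaling and filters, GC offsets, a replicate block, the compared libraries alone, the log2 table with a pseudocount of 1 or 0.5, and leaving out each library. A few listed genes are not reported here.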

Additional observations from a re-analysis of the deposited data

How the results depend on the processing

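Of 408 member values under 17 alternatives, 358 kept their direction and their side of the threshold, 17 lost a call, 21 gained one and 12 changed sign. The changes of sign were in Irf2 and Irf3, which passed in no comparison as reported. Without scaling beyond library size, which moved the median of all genes to -0.289 in LPS against control and -0.319 in LPS + VD3 against control, Irf2 was at -0.21 and -0.074. Irf2 was at -0.20 and -0.10 in the deposited log2 table, and at -0.21 and -0.10 there with a pseudocount of 0.5. Leaving out 1 library, Irf2 ran from -0.051 to 0.18 in LPS against control, -0.21 to 0.47 in LPS + VD3 against LPS and -0.15 to 0.55 in LPS + VD3 against control. Irf3 in LPS + VD3 against LPS was at 0.17 with GC offsets and 0.17 with a replicate block and GC offsets, and ran from -0.36 to 0.13 leaving out 1 library. Without scaling the share of higher calls over all genes was 26.5% and 26% in the comparisons with control, against 49.2% and 50.7% as reported, and 24.7% and 24.2% in the log2 table.

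The members called in LPS against control numbered 4 as reported, 7 with GC offsets, 7 with both the replicate block and GC offsets, and 4 to 7 leaving out 1 library; those gained were Irf3, Irf4 and Irf5. In LPS + VD3 against LPS they numbered 3 as reported and 1 to 5 leaving out 1 library. All genes called in LPS + VD3 against LPS numbered 409 as reported, 1114 with the replicate block, 774 with GC offsets, 1289 with both, 259 in a fit of the compared libraries alone, and 53 (without LPS + VD3 2) to 3668 (without LPS 2) leaving out 1 library. Leaving out 1 library, they numbered 1885 to 4812 in LPS against control (3371 as reported) and 2049 to 5403 in LPS + VD3 against control (3715 as reported). The cause of these moves was not tested.

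The label of each LPS + VD3 library includes a number of an LPS library (LPS1 plus VD3, LPS2 plus VD3), which may tie them, but no label says that equal numbers share cells or a day. For that reason the numbers were not taken as pairs. Replicate deviations correlated at 0.172 between LPS and control, 0.0894 between LPS + VD3 and control and 0.196 between LPS + VD3 and LPS. These values do not decide whether libraries were paired. With the replicate block 6 members passed in LPS against control, 4 in LPS + VD3 against LPS and 5 in LPS + VD3 against control. The block added Irf5 in LPS + VD3 against LPS (-0.66, edgeR adjusted p = 0.0144), and Irf4 (0.41, 0.0463) and Irf5 (0.40, 0.0473) in LPS against control. With GC offsets too, Irf5 in LPS + VD3 against LPS was at -0.41 (0.0317). Counts near 10 per library, as for Irf7 in control, Ifnb1 and Socs1, limit what depth can show there.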
